A study of Mus musculus with 54 samples.

Results

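Described here were 6 genes that B lymphocytes use to build, signal through or accompany their antigen receptor (Cd79a, Cd79b, Ms4a1, Ighm, Ighd and Igkc), in bulk RNA-seq and 10x libraries of adult mouse kidney. They were chosen by name out of the 33126 genes listed in any file, 19290 of them in the 10x files. The choice was made with earlier results of these data known, including the levels of these genes in intact and dissociated tissue, in stored cells and in nuclei. Values in those comparisons are therefore a description, without a test of the 6 genes. The gene lists used further on were also chosen with earlier results known. Their calls and p values in those comparisons are a description as well. Warm against cold dissociation was not part of the choice, so tests are given there. A lower number of B cells after warm dissociation was already known from the same libraries, so the direction of these tests was known beforehand.

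The study compared ways of preparing kidney for single-cell RNA-seq, in 54 libraries that formed 18 groups of 3, each from 3 kidneys of 3 mice. Male AFAPIL.1DEL C57BL/6J mice of the same litter, aged 19 weeks, gave suspensions that were made on ice with a cold-active protease from B. licheniformis (cold) or at body temperature with a commercial enzyme kit (warm). These were run as fresh cells, after 6 weeks of cryopreservation, after methanol fixation and as bulk RNA, and all of these groups carry the same genotype label, controls included. Untreated male Balb/c mice of the same litter, aged 18 weeks, gave fresh cold cells, sorted nuclei washed 3 times at 500 g and bulk RNA of intact kidney. Untreated female Balb/c mice aged 15 weeks, which were wild type and had been used for breeding, gave fresh cold cells, cold cells cryopreserved for 2 weeks, and bulk RNA of intact kidney and of the cold suspension. Their nuclei were made by the same 3 washes, by 1 wash at 2000 g, both with sorting, or by a sucrose gradient. Chemistry version 2 was used in both male experiments and version 3 in the female one, and bulk RNA was depleted of rRNA in the male experiments but poly(A)-selected in the female one. Strain, sex, age, chemistry and selection therefore cannot be told apart between experiments.

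A B cell recognises antigen with a membrane-bound antibody made of heavy and light chains. The antibody itself barely reaches into the cytoplasm, and the signal passes through the paired chains CD79A and CD79B, whose tails are phosphorylated by kinases such as Lyn and Syk. Ighm and Ighd encode the constant regions of the IgM and IgD heavy chains, which naive B cells make side by side by splicing of a shared transcript. Igkc encodes the constant region of the kappa light chain, which most mouse B cells use in place of lambda. Ms4a1 encodes CD20, a membrane protein of B cells. Plasma cells secrete antibody in bulk, keep light and heavy chain RNA at very high levels, and lose Cd79a, Cd79b and Ms4a1 to a large extent.

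Cd79a lies on the plus strand of GRCm38 at chr7:24897381-24902197, and Cd79b on the minus strand at chr11:106311341-106314762. Ms4a1 lies at chr19:11249675-11266241 (minus strand) and overlaps the antisense gene 4930526L06Rik. Ighm at chr12:113418558-113422730 and Ighd at chr12:113406604-113416324 are neighbours on the minus strand of the heavy chain locus. Igkc is a short gene of 532 exonic bases at chr6:70726435-70726966 (plus strand) and overlaps Gm30211, a noncoding RNA gene of the same strand, so that reads of the overlap cannot be assigned to either gene with certainty. The promoter of Cd79a is shown because the 6 genes varied together across libraries, and Cd79a is a known target of the B lineage factor EBF1, whose sites hold the letters GGGAAT. Of the 6 genes, 1 had a promoter in the RefSeq table used (GRCm38.p6). The bases before the annotated start of the gene, chr7:24897247-24897380 on the plus strand, are given with these letters in capitals.
Cd79a promoter: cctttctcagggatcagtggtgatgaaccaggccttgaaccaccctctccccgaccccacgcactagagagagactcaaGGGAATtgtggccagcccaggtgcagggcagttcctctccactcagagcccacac
On either strand of the 250 bases before the RefSeq start, GGGAAT was found in 3755 of 32851 promoters (11.4%) and the octamer ATGCAAAT, a motif of immunoglobulin promoters, in 526 (1.60%) and not in that of Cd79a.

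Bulk libraries held 2326998 to 31093949 counts, cell libraries 983522 to 27869324 unique molecular identifiers (UMIs, 1 per captured transcript) in 782 to 7928 barcodes, and nuclei libraries 7629138 to 35170947 UMIs in 6971 to 9308 barcodes. Levels are given as CPM, the counts of a gene per 1000000 counts of the library outside mitochondrial genes, summed over all barcodes of a 10x library. Bulk and 10x levels are different measures and are not compared in size. The authors kept genes seen in at least 10 cells, and in the files a gene below that is mostly listed at 0 or not listed. Of 234 values of the 6 genes in the 10x libraries, 36 were listed at 0 and 11 were not listed, so a 0 can stand for few barcodes or for none. Library pairs shared a median of 0.124% and at most 2.05% of the barcode sequences of the smaller library, and 1 of 741 pairs shared a barcode that passed the B cell gate defined further on. In bulk RNA and in sums over barcodes, fewer B cells and less RNA per B cell cannot be told apart.

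In bulk RNA, Cd79a was highest in the cold C57BL/6J suspensions, at 5.90, 4.48 and 3.56 CPM. The warm C57BL/6J suspensions held 1.91, 0.925 and 1.14 CPM and the cold Balb/c female suspensions 1.96, 0.713 and 1.87 CPM. Lowest were intact kidneys, with 0.686, 0.468 and 0.452 CPM in Balb/c males and 0.198, 0.0684 and 0.176 CPM in Balb/c females. Only the cold female and warm C57BL/6J libraries overlapped among neighbours in this order. Cd79b, its partner chain, was at 9.10, 8.96 and 5.94 CPM in cold C57BL/6J suspensions and at 3.27, 3.85 and 2.70 CPM in warm ones. It was at 2.77, 2.06 and 2.75 CPM in cold female suspensions, 1.09, 0.923 and 1.86 CPM in intact female kidneys and 0.137, 0.468 and 0.904 CPM in intact male kidneys. By means, the order differed from that of Cd79a for the warm C57BL/6J suspensions, which stood above the cold female ones. It also differed for the intact kidneys of the females, which stood above those of the males, without overlap. Again only the warm C57BL/6J and cold female suspensions overlapped. Counts behind these levels were small: Cd79a had 46, 25 and 21 counts in the cold C57BL/6J suspensions and 14, 6 and 8 in the warm ones.

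Ms4a1 followed the order of Cd79b, from 7.80 ± 0.402 CPM (mean ± SD, n = 3) in cold C57BL/6J suspensions through 3.11 ± 0.775 CPM in warm ones and 1.32 ± 0.681 CPM in cold female ones to 0.159 ± 0.111 CPM in intact female and 0.0753 ± 0.130 CPM in intact male kidneys. The intact groups overlapped with each other and no other neighbours did. Among the heavy chains, Ighm was at 39.5 ± 7.04, 24.1 ± 4.46 and 12.1 ± 1.60 CPM in these suspensions, and at 4.93 ± 0.348 CPM in intact female and 4.91 ± 1.97 CPM in intact male kidneys. Ighd was at 13.5 ± 4.01, 5.22 ± 0.320 and 1.30 ± 0.489 CPM in the suspensions, and the range of intact male kidneys (0.834 ± 0.732 CPM) overlapped with those of cold female suspensions and of intact female kidneys (0.193 ± 0.104 CPM), which did not overlap with each other. Both heavy chains were therefore separated between the suspensions of C57BL/6J mice but not between the intact kidneys of males and females.

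Igkc stood apart from the other 5 genes. It was highest in intact Balb/c male kidneys, at 48.9, 67.8 and 47.0 CPM, where Cd79a and Ms4a1 were near their lowest. The cold C57BL/6J suspensions held 22.4, 16.9 and 16.1 CPM, the warm ones 7.89, 12.0 and 9.97 CPM, the cold female suspensions 5.35, 2.93 and 6.13 CPM and the intact female kidneys 2.44, 1.4 and 2.99 CPM. Only the last pair overlapped. The intact male kidneys also had the highest levels of Igha, the constant region of IgA, at 60.7, 108 and 56.5 CPM, and of Jchain, which joins secreted IgA and IgM, at 18, 30.4 and 19 CPM. Intact female kidneys held 2.86, 1.03 and 3.13 CPM of Igha and 0.922, 0.855 and 1.16 CPM of Jchain. All 3 genes were thus without overlap between intact male and female kidneys, which also differed in age and RNA selection. Mzb1, a chaperone of antibody-secreting cells that B cells express too, was at 1.65, 1.4 and 2.03 CPM in males and 1.05, 0.889 and 0.668 CPM in females. Per Cd79a count, Igkc gave 71.4, 145 and 104 counts in intact male kidneys, 12.3, 20.5 and 17.0 in intact female kidneys and 3.80, 3.76 and 4.52 in cold C57BL/6J suspensions. The ratios of intact kidneys rested on only 5, 1 and 2 Cd79a counts in males and 6, 2 and 5 in females.

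Levels of different genes can be compared per exonic length. In CPM divided by the exonic length in kilobases (RPKM), the cold C57BL/6J suspensions held 42.2, 31.7 and 30.3 of Igkc, 20.6, 24.8 and 17.4 of Ighm, and 8.30, 8.30 and 4.64 of Ighd. Cd79b was at 6.36, 6.26 and 4.15 RPKM, Cd79a at 4.05, 3.08 and 2.44 RPKM and Ms4a1, whose annotated exons are the longest of the 6, at 1.24, 1.33 and 1.21 RPKM. On this scale the order was light chain, IgM, IgD and then the receptor's signalling chains, with overlap between Ighd and Cd79b. In intact male kidneys Igkc was at 92.0, 127 and 88.4 RPKM against 3.78, 2.23 and 1.80 RPKM of Ighm.

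In fresh C57BL/6J cells, Cd79a was at 73.4, 78.3 and 39.0 CPM after cold and 35.8, 33.5 and 18.7 CPM after warm dissociation. Cryopreserved cells held 334, 263 and 228 CPM after cold and 71.6, 175 and 109 CPM after warm dissociation. Methanol-fixed cells held 61.1, 50.8 and 21.4 CPM and 31.2, 34.0 and 23.4 CPM. Cryopreserved cold cells were thus highest, without overlap with any other group, and that held for each of the 6 genes. Balb/c male cells held 56.6, 35.7 and 8.07 CPM, with the third library far below the other 2. Fresh Balb/c female cells held 0.468, 2.15 and 3.33 CPM and cryopreserved ones 32.9, 40.9 and 34.3 CPM. In nuclei Cd79a reached at most 1.28 CPM. Between the warm cryopreserved C57BL/6J cells (mean 119 CPM) and the warm fresh ones (mean 29.3 CPM), each group overlapped with the next in the order of means (cold fresh, cold methanol, cryopreserved female, fresh male and warm methanol), and fresh female cells and nuclei stood below them.

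**Figure D1:**
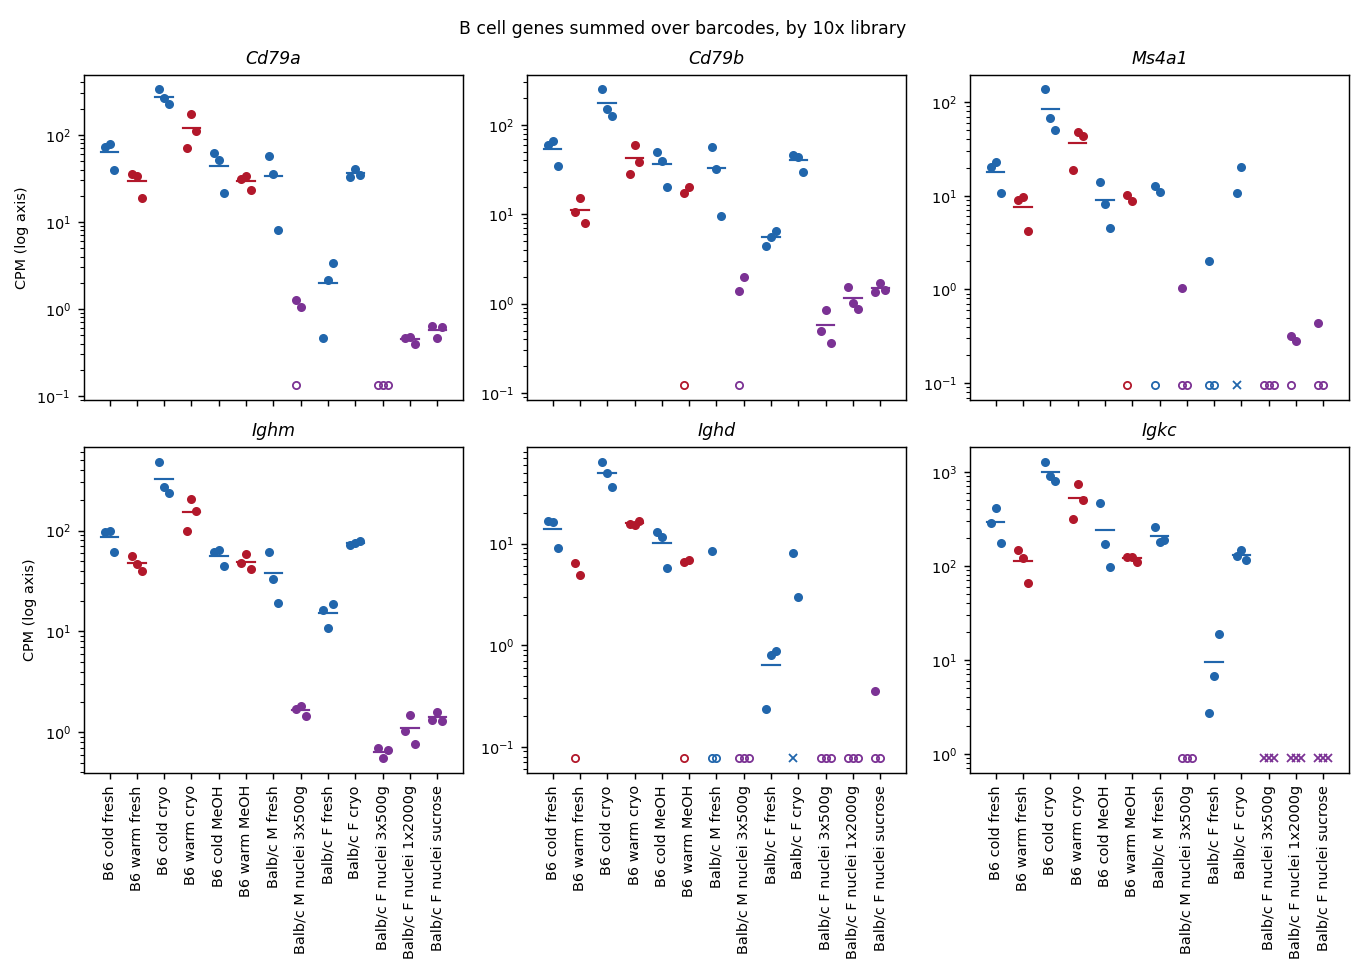
Levels of the 6 B cell genes (CPM, log axes) summed over all barcodes of each 10x library, with 1 point per library and a line at the mean where all 3 libraries were above 0. Open points at the bottom of a panel are values listed at 0 and crosses are values not listed; cryopreserved cold C57BL/6J (B6) cells were highest for all 6 genes, and nuclei stood at or below 1.97 CPM.

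Cd79b was at 59.1, 65.9 and 34.9 CPM in cold and 10.7, 15.3 and 7.89 CPM in warm fresh C57BL/6J cells. After cryopreservation it was at 249.9, 150.3 and 126 CPM (cold) and 28.5, 59.5 and 38.3 CPM (warm), and after methanol fixation at 49.3, 39.4 and 20.3 CPM (cold) and 17.4, 20 and 0 CPM (warm). The last of these, the third warm methanol library, had 782 barcodes and also listed Ms4a1 and Ighd at 0. Unlike Cd79a, Cd79b was lower in warm than in cold libraries without overlap in all 3 storage forms. In Balb/c cells Cd79b was at 55.9, 32.2 and 9.54 CPM in males, 4.44, 5.59 and 6.48 CPM in fresh female and 45.8, 44.2 and 30.1 CPM in cryopreserved female cells.

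Ms4a1, the CD20 gene, was at 17.9 ± 6.53 CPM in cold and 7.64 ± 3.03 CPM in warm fresh C57BL/6J cells and at 84.6 ± 45.8 CPM in cold cryopreserved ones. Ighm was at 86.0 ± 21.1, 47.6 ± 8.42 and 328 ± 133 CPM in the same groups. Ighd, at 16.6, 16.2 and 9.05 CPM in cold fresh and 6.44, 4.89 and 0 CPM in warm fresh cells, was the lowest of the 6 in fresh cold and warm cells by count. Igkc was the highest by count, at 285, 417 and 176 CPM in cold fresh, 147, 122 and 66.0 CPM in warm fresh and 1279, 898 and 798 CPM in cold cryopreserved cells. Single barcodes carried much of it in some libraries. In cold fresh replicate 2, 1 barcode with 13 Cd79a, 18 Mzb1 and 0 Ighm UMIs held 767 of the 2318 Igkc UMIs (33.1%), while the next barcode held 42. In Balb/c male replicate 3, 1 barcode with Jchain (9 UMIs) and Igha (17 UMIs) and without Cd79a, Cd79b or Ms4a1 held 123 of 257 Igkc UMIs (47.9%), and in fresh Balb/c female replicate 3, 1 barcode held 131 of 213 (61.5%).

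The first comparison asked how B cell RNA of the whole kidney compared with that of a dissociated suspension, in bulk RNA of Balb/c females. Intact kidneys were flash-frozen and the suspensions came from other kidneys, so the samples were not matched. All 6 genes were lower in intact kidney than in the cold suspension. The log2 fold change was −3.25 for Cd79a, −2.94 for Ms4a1, −2.65 for Ighd, −1.25 for Ighm, −1.02 for Igkc and −0.92 for Cd79b. The paired signalling chains thus had the largest and the smallest of the 6 values, with 1.51 against 0.147 CPM for Cd79a and 2.53 against 1.29 CPM for Cd79b. The groups overlapped for Igkc only at the border of 2.99 and 2.93 CPM and were separate for the other 5 genes. Over all 16538 genes tested, 20% were called at an adjusted p of 0.05 (edgeR quasi-likelihood test with Benjamini-Hochberg adjustment, as everywhere below) with 12.1% higher and 7.91% lower in intact kidney, and since the 6 genes were chosen for such differences, no more is read from them.

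Of 30 other B cell genes, a list that was also chosen with earlier results known, 22 were tested. 17 were lower in intact kidney and 1 was higher, with a median log2 fold change of −1.30 against −0.0029 over all genes. Cd37, a tetraspanin of lymphocytes, changed by −2.20 (SE 0.38, adjusted p = 0.00324), Cd22, a lectin that dampens receptor signals, by −1.98 (SE 0.38, adjusted p = 0.00592), and Cd72, another inhibitory receptor, by −1.26 (SE 0.20, adjusted p = 0.00193). The gene that was higher in intact kidney was Ralgps2, an exchange factor that cells other than B cells express too, at 0.68 (SE 0.10, adjusted p = 0.00103). Of 20 genes of B cell receptor signalling, many of which other leucocytes share, 13 of 20 were lower and 1 was higher (median −0.52). Ptprc, the phosphatase CD45 of all leucocytes, changed by −1.29 (SE 0.14, adjusted p = 0.000208).

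Markers of other blood cells were lower in intact kidney as well. This held for 7 of 13 T cell genes (median −0.97), 8 of 10 macrophage genes with 1 higher (−1.10) and all 5 red cell genes (−2.39). It also held for 4 of 7 NK cell genes (−1.01), 4 of 7 dendritic cell genes with 1 higher (−0.84) and 3 of 4 neutrophil genes (−2.01). Summed levels were 10.4 to 13.9 against 19.5 to 22.4 CPM for T cell genes, 221 to 243 against 222 to 288 CPM for macrophage genes and 58.3 to 227 against 261 to 1041 CPM for red cell genes. Of the 13 plasma cell genes, 8 were tested and 0 were called (median 0.08). The part of any of these in the B cell values was not tested. The count of B cell genes called fell from 18 to 9 without the first cold library and to 10 without the second intact one.

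The second comparison compared B cell RNA after warm and cold dissociation, in bulk RNA and fresh cells of C57BL/6J mice. A lower number of B cells after warm dissociation was known before these tests. In bulk RNA all 6 genes were lower in the warm suspensions, none with overlap. Cd79a fell by 1.82 on the log2 scale (SE 0.33, adjusted p = 0.00439) and Cd79b by 1.32 (0.23, 0.00435). Ms4a1 changed by −1.34 (SE 0.22, adjusted p = 0.0028). Of the antibody chains, Ighd changed by −1.39 (SE 0.22, adjusted p = 0.0022), Igkc by −0.93 (SE 0.18, adjusted p = 0.00627) and Ighm by −0.73 (SE 0.14, adjusted p = 0.00754). The calls stood against 8.68% of 14102 genes called in either direction, 5.42% called higher and 3.26% called lower, and all 6 were kept when any 1 of the 6 libraries was left out.

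Of the other B cell genes, 11 of 23 were lower after warm dissociation and 0 were higher, with a median of −0.82 against −0.01 over all genes. Ly6d, a surface protein of B lineage and epithelial cells, changed by −1.98 (SE 0.29, adjusted p = 0.00118). Tnfrsf13b, a receptor for the survival factors BAFF and APRIL, changed by −1.64 (SE 0.28, adjusted p = 0.00328) and the inhibitory receptor Btla by −1.28 (SE 0.25, adjusted p = 0.00683). This count rested on single libraries: it was 3 without the first cold or the third warm library, 4 without the second cold, 5 without the first or second warm and 10 without the third cold library, and it was 5 with DESeq2. Of the signalling genes, 7 of 20 were lower and 1 was higher. Ptprc changed by −0.66 (SE 0.11, adjusted p = 0.00208), whereas Blnk, an adaptor between Syk and phospholipase C that macrophages and some epithelia also express, rose by 1.10 (SE 0.14, adjusted p = 0.00044). Markers of other blood cells were at lower medians too, apart from T cell genes (−0.05, with 1 of 11 called, as higher). Medians were −0.97 for neutrophil genes (2 of 4 lower), −0.74 for dendritic cell genes (1 of 5), −0.72 for NK cell genes (1 of 5), −0.37 for macrophage genes (2 of 10) and −0.85 for red cell genes (4 of 5). Summed NK cell genes were at 15.2 to 17.7 CPM in cold and 8.44 to 10.9 CPM in warm suspensions, and summed neutrophil genes at 18.6 to 21.5 and 9.09 to 11.2 CPM. Their part in the B cell values was not tested.

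In the sums over fresh cells the warm libraries were again lower without overlap for all 6 genes, but the tests were less clear. Cd79b fell by 2.02 on the log2 scale (SE 0.28, adjusted p = 0.00283) and kept its call without any 1 library. Igkc changed by −1.24 (SE 0.33, adjusted p = 0.0349) and Ighm by −0.71 (SE 0.19, adjusted p = 0.0347), calls that were each lost in 5 of the 6 fits that left out a library. Cd79a at −0.95 (SE 0.28, adjusted p = 0.0523), Ms4a1 at −1.02 (SE 0.33, adjusted p = 0.071) and Ighd at −1.67 (SE 0.57, adjusted p = 0.0815) did not pass the threshold in this edgeR fit, and under DESeq2 Cd79a did (adjusted p = 0.0232). An edgeR fit with a block on a number in the barcode names called Cd79a and Ms4a1 too. Between warm and cold cells that is a shared number only. Over all 12061 genes, 14.9% were called, 7.86% as higher and 7.07% as lower in warm cells. In cryopreserved cells Igkc was at 318, 747 and 503 CPM after warm and 1279, 898 and 798 CPM after cold dissociation.

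Of the other B cell genes, 5 of 24 were lower in warm fresh cells and 0 were higher, with a median of −1.07 against −0.03 over all genes. Ly6d changed by −1.50 (SE 0.23, adjusted p = 0.00471), H2-DMb2, a chaperone of peptide loading onto class II molecules, by −0.87 (SE 0.17, adjusted p = 0.0128) and Ebf1, the factor that sets B cell identity but is also found in stromal cells, by −0.55 (SE 0.13, adjusted p = 0.0249). The count was 12 without the second warm library, 1 without the second cold one, 2 without the first or the third warm and 3 without the first cold library. That warm library held 88.0 CPM of the lambda light chain gene Iglc2 and 45.5 CPM of Igha, while the other 2 warm libraries held 11.9 and 9.97 CPM of Iglc2 and were listed at 0 for Igha. Of the signalling genes, 4 of 19 were lower and 0 were higher, among them Ptprc at −0.72 (SE 0.15, adjusted p = 0.0136) and Plcg2, the phospholipase downstream of Blnk, at −0.69 (adjusted p = 0.0366). 6 of 10 macrophage genes (median −0.50), 3 of 11 T cell genes with 1 higher (−0.46), 2 of 4 dendritic cell genes (−0.84) and 4 of 5 red cell genes (−1.42) were lower too. Of 7 NK cell genes 0 were called by edgeR (median −0.57), with summed levels of 102 to 103 CPM in cold and 40.5 to 72.5 CPM in warm cells, while 4 of 10 proximal tubule genes were higher (0.41).

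**Figure D2:**
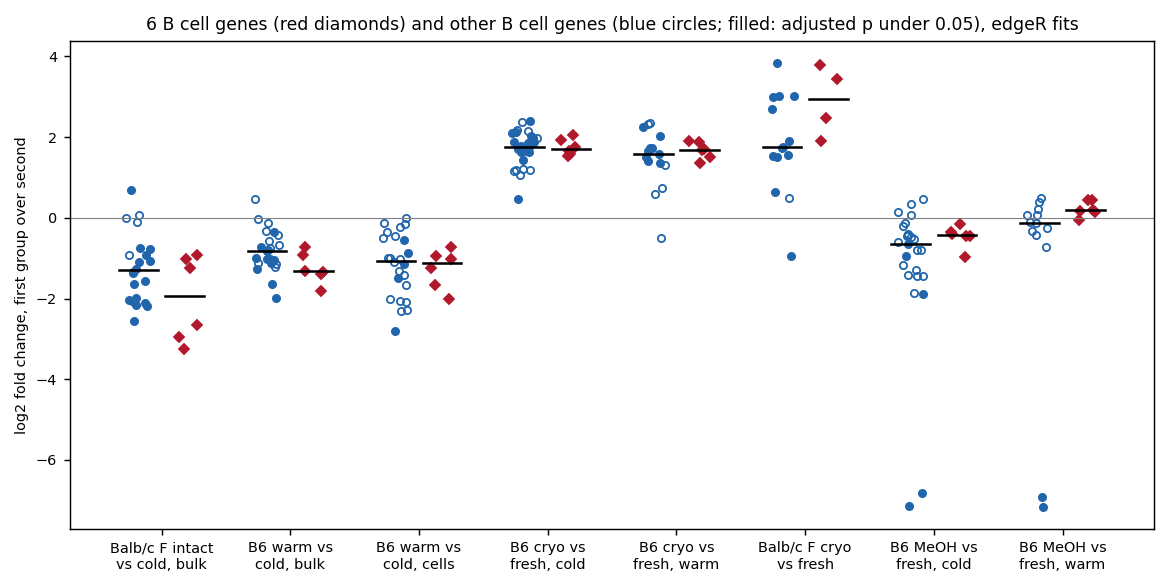
Log2 fold changes (first group over second) from edgeR for the 6 B cell genes (red diamonds) and for the other B cell genes tested (blue circles, filled at an adjusted p under 0.05), with a bar at the median of each. The medians of both sets lay below 0 in intact kidney and after warm dissociation and above 0 after cryopreservation, while single blue genes lay on the other side; the blue points near −7 belong to genes at 0 in all 3 methanol libraries, so their size depends on the fit.

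To separate the number of B cells from the RNA of each cell, a barcode was called B-gated if it held UMIs of at least 2 of Cd79a, Cd79b and Ms4a1. In cold fresh C57BL/6J cells, 46 of 2356 (1.95%), 120 of 4084 (2.94%) and 72 of 5411 (1.33%) barcodes were B-gated. In warm fresh cells it was 25 of 2412 (1.04%), 66 of 5972 (1.11%) and 16 of 2873 (0.557%). The mean share was 2.07% ± 0.811 (SD, n = 3) after cold and 0.900% ± 0.299 after warm dissociation, a difference of −1.17 percentage points without overlap (exact two-sided permutation test over libraries, p = 0.1, the smallest p that 3 against 3 libraries allow). It was −0.742 points without the second cold library and −1.55 without the third cold one. T-gated barcodes, with at least 2 of Cd3d, Cd3e and Cd3g, made up 0.976, 1.76 and 1.44% of cold and 1.04, 0.703 and 0.975% of warm fresh cells, with overlap. B cell gates on 2 of the 6 genes, on 2 of the other B cell genes, or on Cd79a and Cd79b together gave differences of −1.30, −1.76 and −1.30 points with the same p. Mean shares were 2.68% in cold against 1.38% in warm cells, 4.43% against 2.66% and 1.94% against 0.645%. The gate on the other B cell genes also passed 17.7 to 26.5% of barcodes in female nuclei libraries, so it is not particular to B cells. As Cd79b per gated cell was lower after warm dissociation (below), the gates that use it do not fully separate number from RNA per cell. Divided by the number of barcodes outside the tubule gate, the share of the first B gate was 3.34% in cold against 1.68% in warm cells, and the groups then overlapped (exact permutation p = 0.2).

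After cryopreservation, 116 of 897 (12.9%), 144 of 1629 (8.84%) and 83 of 993 (8.36%) barcodes were B-gated in cold cells and 21 of 1255 (1.67%), 53 of 1000 (5.30%) and 49 of 1228 (3.99%) in warm cells. Methanol-fixed cold cells held 35 of 1886 (1.86%), 67 of 4672 (1.43%) and 38 of 5069 (0.750%) and methanol-fixed warm cells 16 of 1451 (1.10%), 27 of 3312 (0.815%) and 0 of 782. Balb/c male cells held 37 of 2467 (1.50%), 35 of 3109 (1.13%) and 3 of 3577 (0.0839%), fresh female cells 1 of 4606 (0.0217%), 9 of 7928 (0.114%) and 3 of 4413 (0.0680%) and cryopreserved female cells 24 of 1543 (1.56%), 19 of 1543 (1.23%) and 10 of 1188 (0.842%). Pooled over the libraries of a group, cold fresh cells had a share of 2.01% (95% Wilson interval 1.77 to 2.28%, which covers counting error only). The share was thus highest in cryopreserved cold C57BL/6J cells and lowest, among cells, in fresh female ones and in the third libraries of the male and warm methanol groups. In the 12 nuclei libraries 0 to 5 barcodes of 6971 to 9308 were B-gated, 24 in all. The gate cannot be passed where 2 of its genes are listed at 0, which was the case in the third warm methanol library, the second male nuclei library and all 3 female nuclei libraries with 3 washes, so their shares of 0 give no upper limit.

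**Figure D3:**
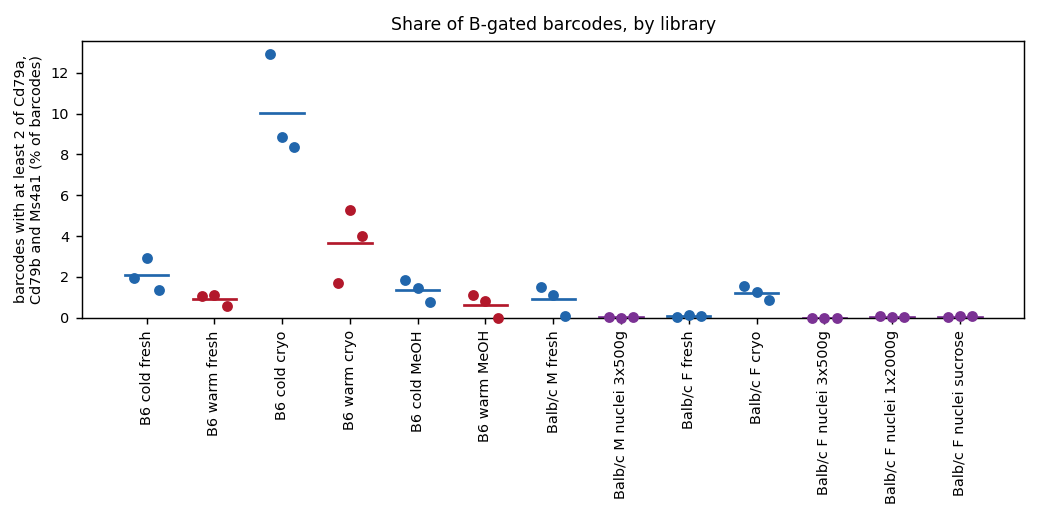
Share of barcodes with UMIs of at least 2 of Cd79a, Cd79b and Ms4a1 (percent of all barcodes of a library, axis from 0), with 1 point per library and a line at the mean of 3. Cryopreserved cold C57BL/6J (B6) cells reached 8.36 to 12.9%, and nuclei stood at or near 0.

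Of the 6 genes within the B-gated cells, the edgeR fit called Cd79b. Its level, in CPM of the UMIs of gated cells, was 2766 ± 56.7 in cold and 1012 ± 181 in warm fresh cells (n = 3 each), while Cd79a was at 3509.9 ± 170.1 and 3395 ± 303. In the edgeR fit over 835 genes, 7.31% of which were called (5.63% higher, 1.68% lower), Cd79b changed by −1.36 (SE 0.18, adjusted p = 0.00118) and Cd79a by −0.0039 (SE 0.13, adjusted p = 0.994). The gate itself used both of these genes and Ms4a1, which changed by −0.05 (SE 0.19, adjusted p = 0.955). Of the 3 genes outside the gate, Ighm changed by −0.01 (SE 0.21, adjusted p = 0.987), Igkc by −0.25 (SE 0.19, adjusted p = 0.585) and Ighd by −0.82 (SE 0.53, adjusted p = 0.511), with 718 ± 67.5 CPM in cold against 655, 405 and 0 CPM in the 3 warm libraries for the last. The 0 belongs to the third warm library, which lists Ighd at 0 over all its barcodes.

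Because a gate that uses Cd79b can shape its level, barcodes with UMIs of Cd79a and Igkc were also taken, a gate added after the values were seen. In these, Cd79b changed by −1.38 (SE 0.21, adjusted p = 0.00364), and in a gate on the other B cell genes by −1.66 (0.28, 0.00273). In the first of these Ighm (−0.07), Ms4a1 (−0.13) and Ighd (−0.84) had adjusted p values of 0.506 to 0.925. In the Cd79a and Igkc gate, Cd79b was seen in 93.6, 89.1 and 76.9% of cold and 51.6, 70.1 and 76.5% of warm barcodes, so the groups nearly met. Thinning was done in the B gate only, which uses Cd79b itself. With every B-gated barcode thinned to 500 UMIs, 3 shallower barcodes of the second cold library were left out. Cd79b was then seen in 73.9, 66.7 and 59.7% of cold and 16, 34.8 and 25% of warm barcodes. Ighm was seen in 76.1, 59.0 and 59.7% of cold and 60, 50 and 68.8% of warm ones. Ighd was also seen less often in the first and second warm libraries, in 12 and 15.2% of barcodes, than in the cold ones, in 34.8, 22.2 and 25%. The third warm library lists Ighd at 0 over all its barcodes, so its 0 of 16 was fixed in advance. These thinned shares were not tested. Without thinning, Cd79b was seen in 93.1 to 97.8% of cold and 64.0 to 81.2% of warm B-gated barcodes.

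The ratio of Cd79b to Cd79a needs no gate. Over all barcodes there were 0.806, 0.841 and 0.894 Cd79b UMIs per Cd79a UMI in cold and 0.300, 0.456 and 0.422 in warm fresh cells. In cryopreserved cells the ratio was 0.749, 0.572 and 0.552 after cold and 0.398, 0.339 and 0.350 after warm dissociation. In methanol-fixed cells it was 0.807, 0.776 and 0.947 after cold and 0.558 and 0.587 in the 2 warm libraries that listed Cd79b above 0. Warm cells were lower without overlap in each form of storage (exact two-sided permutation tests, p = 0.1, 0.1 and 0.2, each the smallest the design allows), and the storage forms share mice and suspensions. Bulk RNA did not show this: the ratio was 1.54, 2.00 and 1.67 in cold and 1.71, 4.17 and 2.38 in warm suspensions, on average 1.58 times higher after warm dissociation and with overlap (exact permutation test, p = 0.2). The bulk ratio of 4.17 rested on 25 Cd79b and 6 Cd79a counts.

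**Figure D4:**
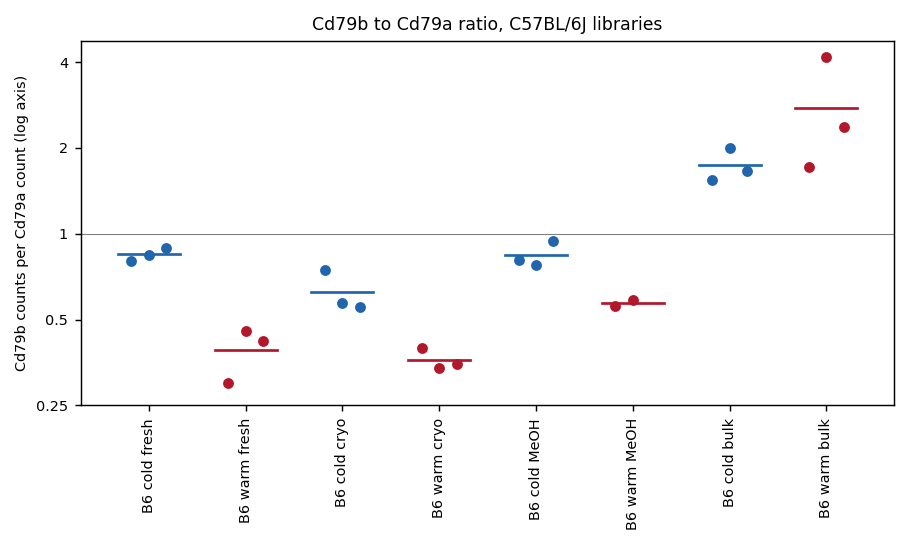
Cd79b counts per Cd79a count (log axis) in each C57BL/6J library, over all barcodes for the 10x libraries, with 1 point per library and a line at the mean. Warm cells (red) lay below cold cells (blue) in fresh, cryopreserved and methanol-fixed (MeOH) libraries, and in bulk RNA the groups overlapped; the third warm methanol library, which lists Cd79b at 0, is not shown.

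The third comparison asked what storage did. After cryopreservation of cold C57BL/6J cells, the log2 fold change over fresh cells was 1.94 for Cd79a, 1.53 for Cd79b, 2.04 for Ms4a1, 1.74 for Ighm, 1.66 for Ighd and 1.58 for Igkc. In warm cells the values were 1.68, 1.51, 1.88, 1.36, 1.70 and 1.89 in the same order of genes. In Balb/c female cells Cd79a differed by 3.78, Igkc by 3.44, Cd79b by 2.46 and Ighm by 1.91, while Ms4a1 and Ighd were not listed in 1 of the cryopreserved libraries and were not fitted. Cryopreserved and fresh groups did not overlap for any gene fitted, and a large part of all genes was called in these fits (50.7, 59.8 and 58.0% in either direction and 21.8, 25.8 and 28.9% higher, 28.9, 33.9 and 29.1% lower).

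The other B cell genes were higher after cryopreservation in 19 of 28 cases in cold, 9 of 15 in warm and 12 of 14 in female cells, and lower in 0, 0 and 1. Their medians were 1.75, 1.57 and 1.75 against −0.13, −0.15 and 0.02 over all genes. Ebf1 changed by 1.87 (SE 0.15, adjusted p = 5.29e-05) in cold, 2.25 (SE 0.11, adjusted p = 6.54e-06) in warm and 1.76 (SE 0.15, adjusted p = 2.68e-05) in female cells. H2-Ob, which restrains peptide loading in B cells, changed by 1.87 (adjusted p = 9.88e-05) in cold cells, and Bank1, a scaffold of receptor signalling, by 2.98 (SE 0.26, adjusted p = 3.04e-05) in female cells. Signalling genes were higher in 18 of 19, 13 of 16 and 17 of 19 cases and lower in none of these, with Plcg2 at 1.73 (SE 0.10, adjusted p = 4.61e-06) in female and Blnk at 2.03 (SE 0.14, adjusted p = 2.26e-05) in warm cells.

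The make-up of the cryopreserved libraries differed at the same time. Proximal tubule genes were lower in 10 of 10, 10 of 10 and 9 of 9 cases, and their summed level was 39.0 to 81.8 CPM in cryopreserved against 8979 to 10811 CPM in fresh cold C57BL/6J cells. All 10 macrophage genes were higher in each of the 3 fits (medians 1.86, 1.60 and 1.45), as were 8 of 11, 9 of 10 and 10 of 10 T cell genes (1.59, 1.79 and 1.02). B cell genes and genes of other leucocytes were thus higher side by side, and the part of the lost tubule RNA in the B cell values was not tested.

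After methanol fixation, fixed and fresh groups overlapped for all 6 genes in both protocols. Barcode names hold a token that fresh and fixed libraries share, and within the cold pairs with the same token Cd79a went from 73.4 to 61.1, 78.3 to 50.8 and 39.0 to 21.4 CPM, and Cd79b from 59.1 to 49.3, 65.9 to 39.4 and 34.9 to 20.3 CPM. Ms4a1, Ighm and Ighd were likewise lower in the fixed library of every pair, and Igkc in 2 of 3. The share of B-gated barcodes went from 1.95 to 1.86%, 2.94 to 1.43% and 1.33 to 0.750%. In cold cells the log2 fold changes were −0.40 for Cd79a, −0.44 for Cd79b, −0.97 for Ms4a1, −0.45 for Ighm, −0.35 for Ighd and −0.15 for Igkc, and in warm cells they lay between −0.06 and 0.44. Of the genes tested, 27.9% were called in cold (14.3% higher, 13.6% lower) and 17.3% in warm cells (7.53% higher, 9.77% lower). Summed markers of some other leucocytes were lower in the fixed cold cells as well, without overlap. They were at 952 to 1064 against 1493 to 1623 CPM for macrophage, 67.9 to 121 against 139.9 to 184 CPM for T cell and 47.6 to 85.6 against 102 to 103 CPM for NK cell genes. The fit called 3 of 10, 3 of 10 and 1 of 6 of these genes as lower, or 7, 3 and 0 with the pairing of aliquots by token (NK cell genes: 1 at an unadjusted p under 0.05). Summed dendritic cell genes overlapped, at 0 to 23.1 in fixed against 18.1 to 43.4 CPM in fresh cold cells, and so did neutrophil genes, at 0 to 88.6 against 15.0 to 71.8 CPM. Red cell genes were at 14365 to 33835 against 5703 to 17643 CPM, with 3 of 5 higher, or 5 with the pairing. In warm cells macrophage genes were at 813 to 819 in fixed and 894 to 948 CPM in fresh libraries and T cell genes at 13.6 to 67.2 and 86.8 to 139 CPM. The part of these in the B cell values was not tested. The value of Igkc in cold cells turned on 1 library: without the first methanol-fixed cold library, at 463 CPM, it was −0.94. Without the third fixed cold library the values were −0.07 for Cd79a, −0.16 for Cd79b, −0.65 for Ms4a1, −0.34 for Ighm, −0.06 for Ighd and 0.22 for Igkc. Of the other B cell genes, 5 of 25 were lower in cold and 2 of 13 in warm fixed cells, and none was higher. With the stored and fresh aliquots of a suspension paired by their token, edgeR called 6 lower and 1 higher (Ly6d, log2 fold change 0.46) of 25 in cold cells, 3 of them also called without the pairing. In warm cells it called 0 of 13, with 0 at an unadjusted p under 0.05, against 2 without the pairing and 2 with DESeq2. Cd37 changed by −0.95 (SE 0.22, adjusted p = 0.012) and H2-DMb2 by −0.64 (SE 0.17, adjusted p = 0.0242) in cold cells. Spib and Cr2 in cold and Bach2 and Tnfrsf13b in warm cells were called with all 3 fixed libraries listed at 0. None of these 4 passed with the pairing (edgeR, adjusted p = 0.0577, 0.0878, 0.311 and 0.376). The warm count was also 0 without the first or the third and 1 without the second fresh library and 3 without the second fixed one, and the cold count was 1 without the second fresh and 3 without the third fixed library. Of the signalling genes 7 of 19 were lower in cold cells (median −0.93), among them Ptprc at −1.50 (SE 0.18, adjusted p = 0.00128).

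Tubule cells should lack all 6 genes, and background was read from barcodes that held at least 4 of 10 proximal tubule genes, none of a set of leucocyte genes (Ptprc, Lyz2 and the CD3 and C1q genes) and were not B-gated. Between 0 and 4 barcodes per library met the other terms but were B-gated and were left out. No doublet caller was run, and free RNA cannot be told apart here from a B cell that shares a barcode with a tubule cell and shows fewer than 2 of the 3 gate genes. In fresh and methanol-fixed cells of both male experiments, 0.631 to 3.96% of the tubule barcodes held Igkc, at 2.78 to 54.3 CPM, with 1 exception, and in fresh female cells 0.119 to 0.188% did. The exception was the first methanol-fixed cold library, in which 213 of 659 tubule barcodes (32.3%) held Igkc, at 246 CPM, together with Igha at 68.3 and Jchain at 35.5 CPM. These barcodes held 277 UMIs of Igkc and 11 of Cd79a, and the B-gated barcodes of the same library 420 and 118.

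The fourth comparison set nuclei beside cells. In Balb/c male nuclei Cd79a was listed at 1.28, 0 and 1.05 CPM, Cd79b at 1.38, 0 and 1.97 CPM and Ighm at 1.70, 1.82 and 1.44 CPM, while Ighd and Igkc were listed at 0 in all 3 libraries. Male cells held 62.0, 33.0 and 19.1 CPM of Ighm, 257, 179 and 189 CPM of Igkc and 8.51, 0 and 0 CPM of Ighd. In female nuclei Ighm was at 0.691, 0.559 and 0.661 CPM after 3 washes, 1.03, 1.48 and 0.768 CPM after 1 wash and 1.31, 1.60 and 1.30 CPM after the sucrose gradient. Cd79a was listed at 0 in all 3 libraries with 3 washes and at 0.398 to 0.638 CPM in the other 6, and Igkc was not listed in any of the 9. Nuclei with 3 washes were thus lower than cells of the same experiment, without overlap, for Cd79a, Cd79b and Ighm in both sexes. Female nuclei of the other preparations reached into the range of female cells for Cd79a, which the first female cell library held at 0.468 CPM, and in 1 sucrose library for Ighd (0.354 against 0.234 CPM). Ms4a1 overlapped in both sexes. It was listed above 0 in 3 of 9 female nuclei libraries (0.316, 0.284 and 0.434 CPM) and 1 of 3 male ones (1.04 CPM), while 2 female and 1 male cell library were listed at 0 and the others held 2.01 CPM in females and 12.8 and 10.9 CPM in males. Genes called between nuclei and cells made up 81.3% in males (53.6% higher and 27.6% lower in nuclei) and 84.8% in females (43.8% and 41.0%).

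Igha, Jchain and Mzb1 were above 0 in the male nuclei libraries. Male nuclei held 16.0, 7.81 and 15.1 CPM of Igha, 2.56, 2.08 and 2.23 CPM of Jchain and 6.60, 13.7 and 13.8 CPM of Mzb1, while the lambda genes Iglc2 and Iglc3 were listed at 0 in all 3. Of the other B cell genes, 4 of 13 were higher and 7 lower in male nuclei, and 5 and 7 of 16 in female nuclei. Those higher included Bach2, a transcriptional repressor of B cells, at 5.00 (SE 0.38, adjusted p = 8.44e-06) in males, where the third cell library was listed at 0, and 5.20 (SE 0.17, adjusted p = 1.32e-08) in females, and Ebf1 at 1.98 (SE 0.16, adjusted p = 3.92e-06) in females. Cd72 was lower at −4.26 (SE 0.51, adjusted p = 0.000116) and −3.66 (SE 0.37, adjusted p = 1.83e-05). Intronic reads were counted in nuclei and not in cells. Of T cell genes, 10 of 12 were lower in female nuclei, as were 9 of 10 macrophage genes.

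Where the UMIs of the 6 genes lay differed between them. In cold fresh C57BL/6J cells the B-gated barcodes held 81.6 to 94.1% of the Cd79a, 74.1 to 89.2% of the Cd79b, 66.3 to 94.0% of the Igkc and 44.0 to 68.1% of the Ighm UMIs. Of the 529 Ighm UMIs outside the gate, 62.4% lay in barcodes with at least 2 of 10 macrophage genes, of which 238 of 834 (20.6 to 36.5% per library) held Ighm, against 40 of 4879 barcodes with at least 4 of 10 tubule genes (0.77 to 0.84%). Other leucocyte gates, which a barcode may pass together, held Ighm as well, in 20 of 36 dendritic, 31 of 125 NK and 29 of 172 T cell barcodes, and Cd79b was seen in 3, 2 and 2 of these. Median depths were 1342 to 1981 UMIs in the macrophage and 1642 to 2442.5 in the tubule barcodes. For Cd79b it was 63 of 834 macrophage barcodes (6.19 to 8.78%) against 14 of 4879 tubule barcodes, and for Cd79a 3 of 834 (at most 1.35%) against 12 of 4879. Ighm and Cd79b in macrophage barcodes thus stood above the tubule level in every library, while the ranges for Cd79a overlapped. In fresh female cells, where B-gated barcodes were fewest, these held 1.92 to 7.88% of the Ighm and 8.77 to 43.3% of the Cd79b UMIs, and 296 of 790 macrophage barcodes held Ighm (33.4 to 43.8%). Summed macrophage markers were at 1493 to 1623 CPM in cold and 894 to 948 CPM in warm fresh C57BL/6J cells.

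In cell libraries, most B-gated barcodes carried light chain RNA of antibodies. Of 238 in cold fresh C57BL/6J cells, 85.7% held Ighm and 95.4% Igkc. More kappa than lambda UMIs were found in 80.3% and more lambda in 15.5%, although 89.9% held some of both. In the 107 of warm fresh cells, 91.6% held Ighm, with more kappa in 92.5% and more lambda in 2.80%. Ighd was seen in 16 of 25 and 29 of 66 barcodes of the first and second warm library and is listed at 0 in the last, against 31 of 46, 55 of 120 and 25 of 72 in the cold libraries. In the 343 of cold cryopreserved cells kappa led in 84.3% and lambda in 13.7%. In Balb/c male cells, whose gated barcodes had a median of only 323 to 369 UMIs against 966.5 to 1637 in cold fresh C57BL/6J cells, 44.0% of 75 held Ighm. Ighd was seen in 9 of 37 male barcodes of the first library and is listed at 0 in the other 2. Among the 24 gated barcodes of nuclei, where Igkc is listed at 0 or not listed and could not be seen, Ighm was found in 1 of 4 male, 6 of 10 single-wash and 9 of 10 sucrose-gradient barcodes. These are shares of barcodes and not of independent samples, depths differ between libraries, and no difference was tested.

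Across the 18 C57BL/6J 10x libraries, the genes with the pattern most like the mean of Cd79a, Cd79b and Ms4a1 were Fcmr, the receptor for the Fc part of IgM, with a Pearson correlation of log2(CPM + 1) of 0.987, Rnase6 (0.968), Ccdc109b (0.965), Polr3gl (0.959) and AI467606 (0.957), out of 10114 candidates. Among the 6 genes, correlations with Cd79a were 0.980 for Ighm, 0.976 for Igkc, 0.912 for Ms4a1, 0.872 for Ighd and 0.824 for Cd79b over the 18 libraries. The third methanol-fixed warm library, which lists Cd79b, Ms4a1 and Ighd at 0, lowered the values of these genes. Without it they were 0.977 for Ms4a1, 0.920 for Cd79b and 0.896 for Ighd, with 0.979 for Ighm and 0.974 for Igkc. The order of the similar genes also depended on this library. Without it Fcmr stood at 0.983, Rnase6 at 0.963 and Ccdc109b at 0.948, while Polr3gl and AI467606, both at 0.938, stood below genes such as Gimap3 (0.958). The libraries share mice, protocols and a strong loss of tubule cells on cryopreservation, and the values are a description.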

How the data were processed

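Bulk files held counts of reads per gene: per the labels and methods, the authors trimmed reads (Trim Galore), removed rRNA and simple reads, aligned them to GRCm38 (Ensembl release 84) with STAR 2.6.1a, marked duplicates and counted with featureCounts. Whether strand or duplicates were used in counting is not given in the sources used here. The deposited 10x tables held UMI counts per gene and barcode from Cell Ranger 2.1.1, exonic reads for cells and introns plus exons for nuclei. The authors had kept cells called by EmptyDrops with 200 to 3000 genes and under 50% mitochondrial UMIs, nuclei with at least 450 (version 2) or 900 UMIs (version 3) and genes in at least 10 cells. No doublet caller was run here, and 0 columns were left unused.

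UMIs were summed per library, since barcodes of 1 library are not replicates, and groups of 3 libraries were compared with edgeR 4.0.16 (R 4.3.3): quasi-likelihood test, TMM factors, filterByExpr, genes listed in all 6 files, only the 2 groups compared, no covariates, and Benjamini-Hochberg adjustment over all genes tested, with calls at an adjusted p under 0.05. The steps were tested on simulated data. Shares and ratios were compared by exact permutation tests over libraries (scipy 1.17.1). Alternatives were RLE size factors, no filter, DESeq2 1.42.0, an exact test with a log2 fold change of 2, other gates and leaving out each library. The Cd79a and Igkc gate, the restriction to genes above 0 in all 6 libraries, the shares outside the tubule and without doublet-like barcodes, the tubule barcodes outside the B gate, the correlations without 1 library and the block were chosen after seeing the data.

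The 6 genes and all lists were chosen with earlier results of these data known. Besides the 6, up to 4 called genes per list and comparison with the smallest adjusted p were eligible to be named, with light chain and plasma cell genes. Igha and the genes named from within gated cells were chosen after their values were seen. Some genes that this rule names are not reported here. Libraries of a group came from 3 mice. Groups carry no shared replicate number in the labels, but barcode names of C57BL/6J 10x libraries hold tokens that the storage forms share. Stored cells were aliquots of the fresh suspensions per the study's methods, so in the storage comparisons libraries with the same token can be taken as pairs. The main fits of these comparisons did not use the pairs. Their p values are unpaired unless the pairing or block is named, as it was an added alternative. Between warm and cold cells the token is a shared number only. Deviations of libraries with the same token correlated at 0.235 to 0.247 in cold methanol against fresh, and at −0.016 to 0.195 in the other comparisons of this kind.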

Additional observations from a re-analysis of the deposited data

How the results depend on the processing

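Over 129 alternatives to the counts of genes called and the share of B-gated cells, 100 were labelled as stayed, 29 as moved and 0 as reversed. For the counts, stayed meant within 1.5 times of the value reported. For the share, the label turned on the permutation p. The smallest p possible was 0.1 or 0.2, above the threshold for calls, so these alternatives could only count as stayed, or as reversed on a change of sign. The difference in share itself ran from −1.76 to −0.742 percentage points, against −1.17 reported. Over 673 alternatives for single genes, group shares and correlations, 605 stayed, 49 moved, 11 lost and 8 gained a call, and 0 were labelled as reversed. For single genes that label was given only for called genes in warm against cold comparisons. In the other comparisons a change of sign could only count as stayed or moved. There stayed meant within 1 SE of the value reported, and for group shares it meant within 1 SD. Correlations could not count as stayed. Leaving out 1 library changed the sign of Igkc in cold methanol-fixed cells (−0.15 to 0.22). In warm ones it changed the sign of each of the 6 genes, such as Cd79b (0.44 to −0.06) and Ms4a1 (−0.06 to 0.34). Where a count moved, the cause was not tested.

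Counts of other B cell genes called moved as follows. With edgeR's exact test and a log2 fold change of 2, the count for intact kidney was 6 in place of 18 and that for warm bulk RNA 0 in place of 11, and DESeq2 gave 5 for the latter and 3 in place of 5 for warm fresh cells. Without a filter on low counts it was 19 for warm bulk RNA and 1 in place of 2 for warm methanol-fixed cells. With genes above 0 in all 6 libraries it was 3 in place of 5 in cold and 0 in warm methanol-fixed cells, and 5 in place of 11 in male nuclei. Within B-gated cells, a gate on 2 of the other B cell genes gave 158 genes called in place of 61.

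Leaving out each library gave 9 to 18 for intact kidney, 3 to 10 for warm bulk RNA, 1 to 12 for warm fresh cells, 1 to 6 for cold and 0 to 3 for warm methanol-fixed cells, and 30 to 81 genes within B-gated cells. The difference in the share of B-gated cells was −1.55 to −0.742 percentage points. With the replicate block on barcode tokens, counts were 7 for warm fresh cells, 19 and 9 for cryopreserved cold and warm cells, 7 and 0 for methanol-fixed cold and warm cells, and 45 within B-gated cells. With this block Cd79a (adjusted p = 0.0038) and Ms4a1 (0.00814) also passed the threshold in warm fresh cells with edgeR. In the storage comparisons, where the token pairs aliquots, the block also changed calls of other B cell genes. In cold methanol-fixed cells Cd72, Fcmr, Ly6d and Tnfrsf13b gained and Spib and Cr2 lost a call. In warm methanol-fixed cells Bach2 and Tnfrsf13b lost theirs. After cryopreservation Vpreb3 gained and Fcrl1 lost a call in cold cells, and Iglc3 gained and Tnfrsf13b lost one in warm cells.

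Depth limits the rare genes: values at 0 in 10x libraries stand for few or no barcodes, bulk counts of Cd79a were under 50 in every library, and nuclei held too few B-gated barcodes for any level within the gate.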

Other observations

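Within B-gated cells, 47 of 835 genes were higher and 14 lower after warm than after cold dissociation of fresh C57BL/6J kidney (edgeR, adjusted p under 0.05; the number was 30 in all without the second cold library). The genes named here were chosen after their values were seen and stand for no group. Among those that were higher, the AP-1 subunit gene Junb changed by 5.17 (SE 0.33, adjusted p = 1.03e-05) on the log2 scale, its relative Jund by 2.69 (SE 0.21, adjusted p = 2.33e-05) and Klf2, a factor of resting lymphocytes, by 1.63 (SE 0.20, adjusted p = 0.000772). The chaperone genes Hspa8 and Hsp90ab1 changed by 1.32 (SE 0.21, adjusted p = 0.0025) and 1.06 (SE 0.26, adjusted p = 0.0342). Cd83 and Cd69, surface proteins of activated B cells, changed by 2.48 (SE 0.38, adjusted p = 0.0022) and 1.78 (SE 0.37, adjusted p = 0.0128), Rel, an NF-kB subunit that the antigen receptor engages, by 2.47 (SE 0.37, adjusted p = 0.00207), and Ccr7, which guides lymphocytes to lymph nodes, by 2.31 (SE 0.34, adjusted p = 0.00196).

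Lower in the warm B-gated cells, beside Cd79b, were the lambda chain gene Iglc3 at −1.05 (SE 0.21, adjusted p = 0.00988), the surface protein gene Cd52 at −0.75 (SE 0.15, adjusted p = 0.00988) and Ltb, a lymphotoxin subunit, at −1.13 (SE 0.30, adjusted p = 0.0452). Of 4 red cell genes tested 3 were lower, among them Hba-a1 at −2.85 (SE 0.51, adjusted p = 0.00552). Red cell genes were also lower in the sums over all barcodes, and their part in the B-gated values was not tested.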
